A study of Mus musculus with 4 samples.

Results

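The expression of 10 genes that direct or mark early endoderm was examined in mouse embryonic stem (ES) cells that differ in BAF250, an ARID domain subunit of the BAF chromatin remodelling complexes. The genes were chosen by symbol: the transcription factor genes Gata4, Gata6, Sox7, Sox17, Hnf4a, Foxa1, Foxa2, Hhex and Foxq1, and the receptor gene Pdgfra. They were 10 of the 18194 genes with a probe set of their own on the array, and 21 probe sets carried their symbols. In RefSeq, Gata4 and Sox7 lie on chromosome 14, Hnf4a and Foxa2 on chromosome 2, and Gata6, Sox17, Pdgfra, Foxa1, Hhex and Foxq1 on chromosomes 18, 1, 5, 12, 19 and 13, in that order. The study measured total RNA of 4 ES cell cultures on 1 Affymetrix array each. The homozygous knock-out group had 2 arrays, labelled ko1 and ko2, while heterozygous knock-out and wild type had a single array each. They are called lines here for short, a word the sample titles do not use. All were kept without feeder cells on gelatin, in serum medium that held leukaemia inhibitory factor (LIF), as the labels state. The parental strain, the design of the knock-out allele, the letter of the BAF250 gene and whether ko1 and ko2 are independent clones could not be read from the labels.

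Primitive endoderm is the layer that lines the blastocoel side of the inner cell mass and gives rise to visceral and parietal endoderm of the yolk sacs. In the mouse, FGF4 signals from epiblast precursors raise GATA6 in their neighbours, and GATA6 is followed by PDGFRA, SOX17, GATA4 and SOX7. Forced GATA4 or GATA6 turns mouse ES cells into cells resembling extraembryonic endoderm. Definitive endoderm arises later, at gastrulation, and builds the gut tube with the FOXA factors, HHEX and, again, SOX17. For the comparison of the classes, Gata4, Gata6, Sox7, Sox17, Hnf4a and Pdgfra were taken as primitive endoderm genes and Foxa1, Foxa2, Hhex and Foxq1 as definitive endoderm and gut genes. Sox17, Foxa2 and Hhex act in both layers in the mouse, so this division follows common use rather than exclusive expression.

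The arrays differed in level and in a sign of RNA quality. The median signal of all probe sets was 2.70 in ko1 and 2.61 in ko2, against 2.74 in heterozygous and 4.01 in wild type. The median gene of the homozygous lines stood at -0.75 (log2) against wild type and at -0.03 against heterozygous, and that of heterozygous at -0.68 against wild type. Every log2 difference and fold below has the shift of its own comparison taken off. Adjusted p-values test the signals as deposited. The 3′ to 5′ ratio of the actin control was 5.01 in ko1 and 2.61 in ko2, against 2.86 in heterozygous and 1.30 in wild type. That of the Gapdh control was 2.57 in ko1 and 1.21 in ko2, against 1.27 in heterozygous and 1.10 in wild type. Background was taken as the brightest of 27 control probe sets for bacterial RNA that was not spiked in, which was 5.55 in ko1 and 3.82 in ko2, against 6.92 in heterozygous and 7.57 in wild type. Of all genes tested, 45.8% were at or below it in ko1 and 33.9% in ko2, against 59.9% in heterozygous and 41.3% in wild type. All 12 pluripotency markers examined were above background on all 4 arrays. Arid1a, which encodes BAF250a, read 7.03 in ko1 and 3.57 in ko2, against 50.4 in heterozygous and 109 in wild type on its brighter probe set. Its other probe set read 17.3 in ko1 and 1.06 in ko2, against 24.1 in heterozygous and 42.9 in wild type, so that ko1 was nearer to heterozygous than to ko2 there. On both probe sets ko1 was above background and ko2 was not, and both homozygous arrays were below the others. In these bulk cultures, fewer cells of a type and less RNA per cell cannot be told apart.

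The first comparison asked which of the 10 genes differed between homozygous and wild type cells. On the brightest probe set of each gene, Gata4 and Sox17 rose in the homozygous lines. Gata6, Pdgfra, Foxa2 and Sox7 also read above both other arrays in each homozygous line, but did not pass the test. Hnf4a, Hhex and Foxq1 did not pass either and were not above both other arrays in both homozygous lines in signals as deposited, with Hnf4a and Hhex brightest in wild type, and Foxa1 was at background on every array. By limma with Benjamini-Hochberg adjustment, 2 of the 9 genes tested rose and 0 fell in homozygous minus wild type, where 0.401% of the 13730 genes tested rose and 0.619% fell. That split of all genes, 55 risen and 85 fallen, turned to 32 and 1 after quantile normalization and to 45 and 5 after median centring. At an unadjusted p under 0.05 the members were 5, against 1632 of the 13730 genes tested. Of the 9, 3 (Sox7, Sox17 and Pdgfra) passed the filter on dim genes only through their homozygous signals, so the count over tested members is a description and no more. Of the 6 that passed on the wild type and heterozygous signals alone, Gata4 rose.

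**Figure D1:**
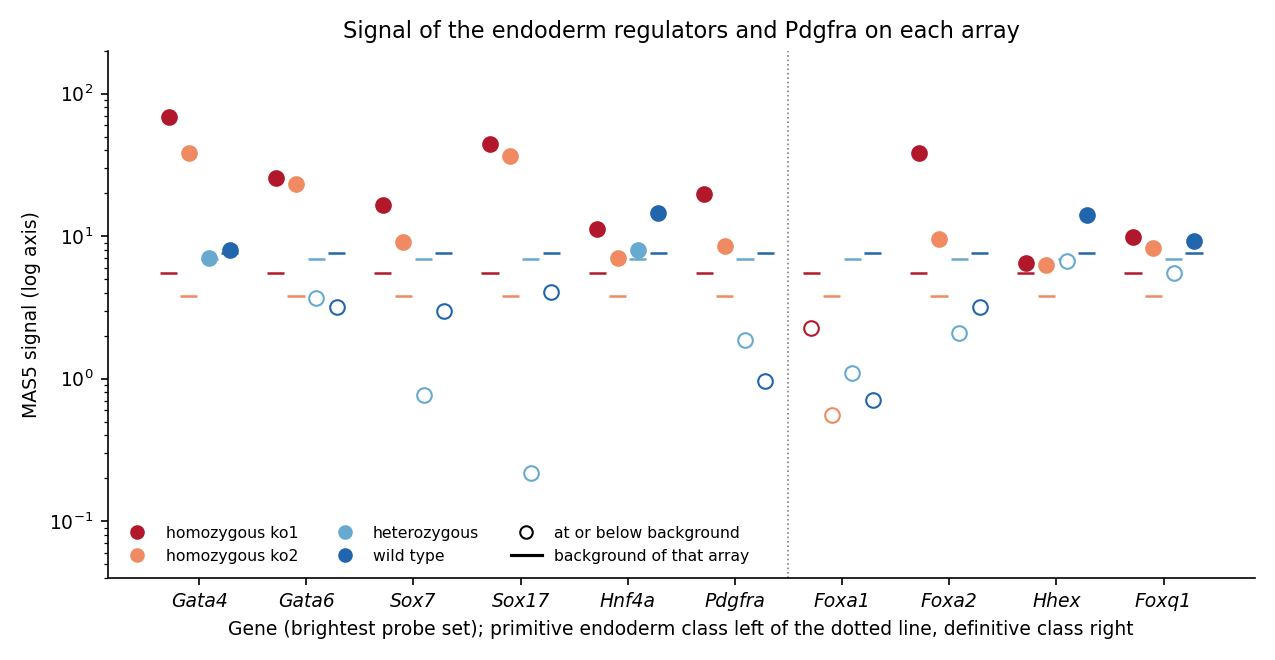
MAS5 signal (log axis) of the brightest probe set of each of the 10 genes on the homozygous ko1 and ko2, heterozygous and wild type arrays; short lines mark each array's background and open circles a signal at or below it. In 6 genes (Gata4, Gata6, Sox7, Sox17, Pdgfra and Foxa2) both homozygous signals lie above both others, and Foxa1 is open on all 4 arrays.

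Gata4 encodes a zinc finger factor that binds GATA sites and drives genes of visceral and parietal endoderm. Its brightest probe set read 68.2 in ko1 and 38.4 in ko2, against 7.02 in heterozygous and 7.98 in wild type. All 4 signals were above background, and the homozygous lines did not overlap the other arrays. Gata4 was 10.0-fold higher than in wild type (log2 difference 3.33 ± 0.61 (SE), limma adjusted p = 0.0187) and 6.89-fold higher than in heterozygous (2.79 ± 0.61, adjusted p = 0.00843). Its other probe set read 1.38 in ko1 and 9.92 in ko2, against 2.17 in heterozygous and 0.886 in wild type. Only the ko2 signal of that probe set was above background, so it shows no rise in ko1. The call against wild type was lost with the mean of a gene's probe sets (2.69 ± 0.68, adjusted p = 0.321) and after quantile normalization (3.28 ± 0.49, adjusted p = 0.0517). Against heterozygous it was lost under the same settings (adjusted p = 0.580 and 0.0821).

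Gata6 encodes the factor that stands first in the primitive endoderm programme. Its brightest probe set read 25.5 in ko1 and 23.4 in ko2, against 3.67 in heterozygous and 3.20 in wild type. The homozygous lines were close to each other and above background, whereas both other arrays were below it. Gata6 was at least 5.41-fold higher than in wild type (fitted 3.44 ± 0.77, adjusted p = 0.0728), which missed the threshold. It was at least 3.61-fold higher than in heterozygous (2.56 ± 0.77, adjusted p = 0.157). A second probe set gave 21.9 in ko1 and 11.6 in ko2, against 4.47 in heterozygous and 1.04 in wild type, and so the same order of groups. The third read 2.30 in ko1 and 0.627 in ko2, against 4.52 in heterozygous and 4.90 in wild type, and was below background throughout. With the 3 probe sets averaged, Gata6 stood at 2.09 ± 0.74 against wild type and 0.95 ± 0.74 against heterozygous.

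Sox17 and Sox7 encode HMG box factors of the SOXF subgroup, and SOX17 occupies and maintains endoderm genes in extraembryonic endoderm cells of the mouse. The brightest Sox17 probe set read 44.1 in ko1 and 36.4 in ko2, against 0.217 in heterozygous and 4.04 in wild type. Both homozygous signals were above background and both others below it. Sox17 was at least 8.87-fold higher than in wild type (fitted 3.86 ± 0.81, adjusted p = 0.0410) and at least 5.91-fold higher than in heterozygous (fitted 5.54 ± 0.81, adjusted p = 9.90e-06). The fitted difference from heterozygous leans on the very low signal of 0.217: with every dim signal set at its array's background it was 2.75 ± 0.66 (adjusted p = 0.0604). That setting was chosen after seeing the data.

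The second Sox17 probe set, whose suffix marks probes that may share sequence with other genes, read 22.9 in ko1 and 15.0 in ko2, against 2.30 in heterozygous and 1.84 in wild type. Its groups did not overlap either (3.68 ± 0.89 against wild type, adjusted p = 0.168 in a fit of every probe set). The Sox17 call against wild type ended in that fit (3.85 ± 0.78 on the brightest probe set, adjusted p = 0.0718), with probe sets averaged (3.63 ± 0.66, adjusted p = 0.225) and after quantile normalization (3.80 ± 0.70, adjusted p = 0.0949). Sox7 read 16.4 in ko1 and 9.14 in ko2, against 0.768 in heterozygous and 2.998 in wild type. The homozygous signals alone were above background. Sox7 was at least 2.71-fold higher than in wild type (fitted 2.56 ± 1.08, limma adjusted p = 0.472) and at least 1.81-fold higher than in heterozygous (3.20 ± 1.08, adjusted p = 0.282). From ko2 alone the Sox7 bounds were 2.03-fold against wild type and 1.38-fold against heterozygous. A second Sox7 probe set, below background on every array, read 0.611 in ko1 and 1.48 in ko2, against 4.96 in heterozygous and 6.64 in wild type. With both averaged, Sox7 stood at 0.45 ± 0.80 against wild type and 0.71 ± 0.80 against heterozygous.

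Pdgfra encodes the receptor tyrosine kinase for PDGF-A, an early surface marker of primitive endoderm that supports survival of its cells. Its brightest probe set read 19.8 in ko1 and 8.48 in ko2, against 1.87 in heterozygous and 0.966 in wild type. The homozygous signals did not overlap the others, which were below background. Pdgfra was at least 2.87-fold higher than in wild type (fitted 3.81 ± 1.10, adjusted p = 0.226) and at least 1.91-fold higher than in heterozygous (2.46 ± 1.10, adjusted p = 0.636). From ko2 alone the bound against wild type was 1.88-fold. With its probe sets averaged, the difference from heterozygous was 1.00 ± 0.82. The second Pdgfra probe set read 6.23 in ko1 and 4.38 in ko2, against 5.70 in heterozygous and 1.17 in wild type, so there the heterozygous array lay within the homozygous range. The third read 0.942 in ko1 and 3.92 in ko2, against 1.03 in heterozygous and 1.47 in wild type. Pdgfra thus stood apart from heterozygous on 1 of its 3 probe sets.

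Hnf4a encodes a nuclear receptor that visceral endoderm needs for its mature function and that later directs liver genes. Its brightest probe set read 11.3 in ko1 and 7.01 in ko2, against 7.96 in heterozygous and 14.6 in wild type, all above background. In signals as deposited, wild type was the highest array and the homozygous lines spanned the heterozygous value (0.08 ± 0.76 against wild type, adjusted p = 0.682). Relative to the median gene, ko1 was the highest (0.82, against 0.66 in wild type). Another probe set had wild type highest as well, with 7.91 in ko1 and 5.72 in ko2, against 4.04 in heterozygous and 13.6 in wild type. The remaining probe sets read 6.17 and 4.98 in ko1 and 0.160 and 1.22 in ko2, against 4.35 and 0.415 in heterozygous and 0.188 and 2.00 in wild type. Of these signals, that of 6.17 was the only value above background.

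**Figure D2:**
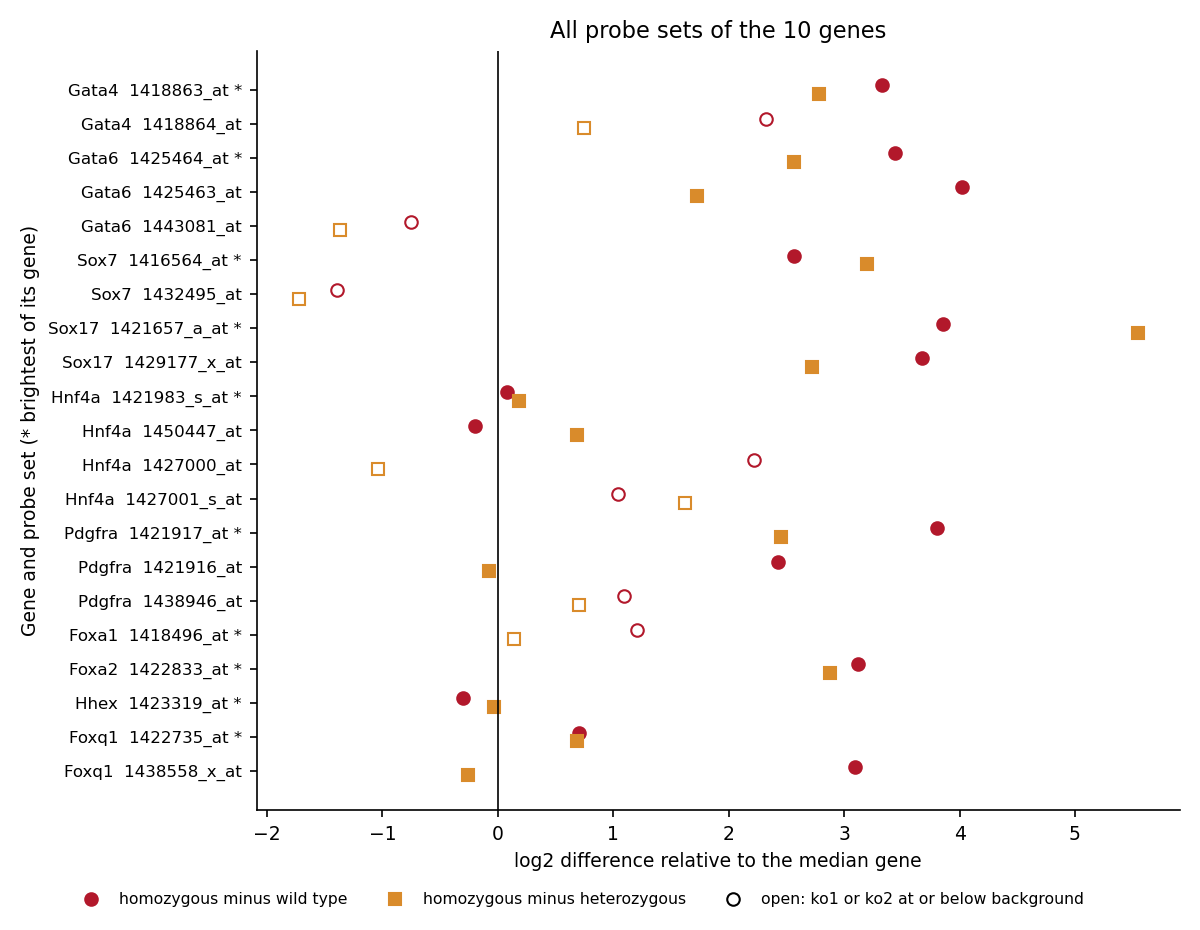
Log2 difference relative to the median gene for every probe set of the 10 genes, homozygous minus wild type (circles) and homozygous minus heterozygous (squares); open symbols mark probe sets with ko1 or ko2 at or below background. Filled symbols of Gata4, Gata6, Sox7, Sox17 and Foxa2 all lie to the right of 0, but filling itself depends on the homozygous signals. The open symbols of Gata6 and Sox7 lie to the left of 0. The probe sets of Hnf4a, filled or open, scatter on both sides.

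Among the definitive endoderm genes, Foxa2 was the member whose homozygous signals as deposited both lay above the other arrays. Foxa2 encodes a forkhead factor of the node, the notochord, the definitive endoderm and the visceral endoderm. It read 38.4 in ko1 and 9.50 in ko2, against 2.10 in heterozygous and 3.16 in wild type. Both homozygous signals were above background and both others below it, but ko1 was far above ko2. Foxa2 was at least 4.23-fold higher than in wild type (fitted 3.12 ± 0.89, adjusted p = 0.261) and at least 2.82-fold higher than in heterozygous (2.87 ± 0.89, adjusted p = 0.200). These values leaned on ko1: from ko2 alone the log2 difference from wild type was 2.15 and the bounds were 2.11-fold against wild type and 1.43-fold against heterozygous. Its paralog Foxa1, a pioneer factor of gut and liver, read 2.28 in ko1 and 0.554 in ko2, against 1.09 in heterozygous and 0.713 in wild type. It was below background on all 4 arrays, did not pass the filter and was not tested.

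Hhex encodes a homeodomain factor of the anterior visceral endoderm and the anterior definitive endoderm. It read 6.49 in ko1 and 6.29 in ko2, against 6.70 in heterozygous and 14.0 in wild type. Wild type was highest, and the 3 other arrays were within a narrow range (-0.31 ± 0.83 against wild type, adjusted p = 0.571). Foxq1, a forkhead gene known in the mouse from the mucous cells of the stomach, read 9.86 in ko1 and 8.26 in ko2, against 5.50 in heterozygous and 9.31 in wild type. The wild type value as deposited lay between the homozygous lines (0.70 ± 0.83, adjusted p = 0.983). Relative to the median gene it was below both, at 0.05 against 0.64 in ko1 and 0.50 in ko2. Its second probe set read 5.57 in ko1 and 4.64 in ko2, against 6.39 in heterozygous and 0.456 in wild type, all but the homozygous signals below background.

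**Figure D3:**
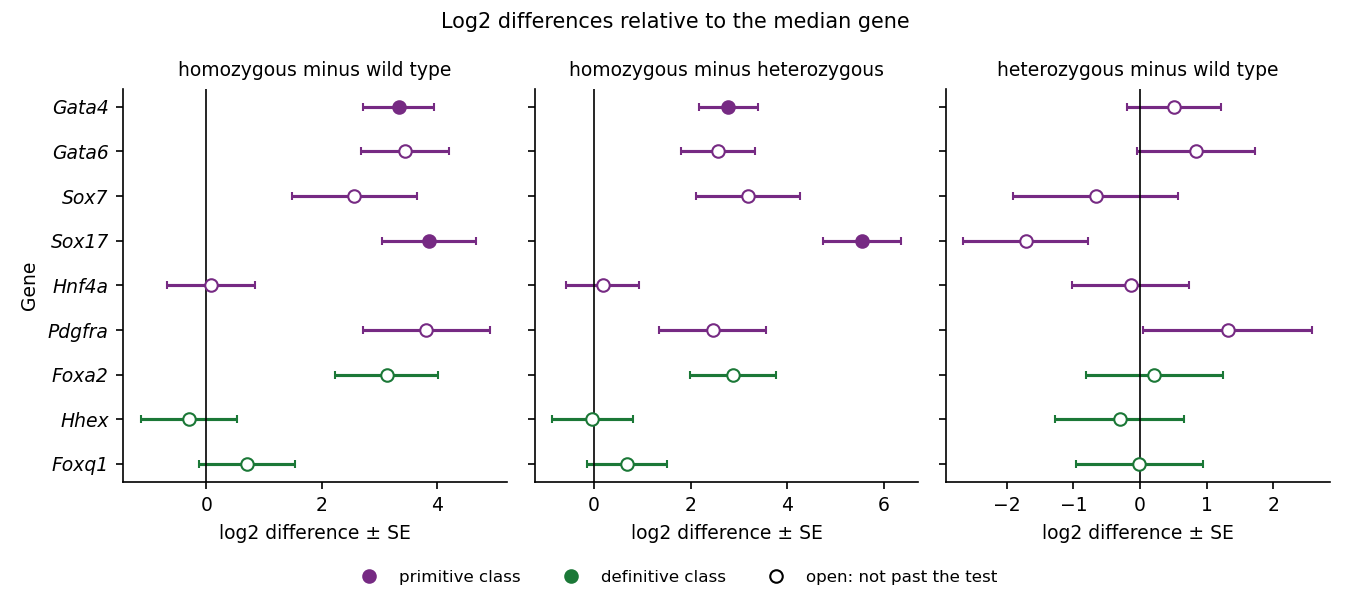
Log2 difference relative to the median gene ± SE for the 9 genes tested, in 3 comparisons (limma, 1 mean per genotype; filled circles passed an adjusted p of 0.05). Gata4 and Sox17 are filled against wild type (3.33 and 3.86) and against heterozygous (2.79 and 5.54), and no gene is filled in heterozygous minus wild type.

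The homozygous lines were also set against the heterozygous line, which shares with them a disrupted allele. Again 2 of the 9 genes tested, Gata4 and Sox17, rose and 0 fell by limma, where 0.699% of all genes tested rose and 0.0583% fell. Sox17 passed the filter on dim genes only through its homozygous signals, so this count is a description. The unadjusted p was under 0.05 for 6 members, against 944 of the 13730 genes tested. This comparison uses the same homozygous arrays as the one against wild type, so the pair is not independent. Heterozygous minus wild type asked what loss of a single allele did, and there 0 of the 9 genes passed. The unadjusted p was under 0.05 for 1 of them (Sox17), against 1038 of the 13730 genes tested. By limma adjusted p, 0% of all genes tested rose and 0.0146% fell. The largest member difference was that of Sox17 (-1.72 ± 0.93, adjusted p = 0.578), between signals that were both below background. Pdgfra stood at 1.32 ± 1.27 and Gata6 at 0.84 ± 0.89, also between dim signals, and Gata4 at 0.51 ± 0.70. Each of these comparisons rests on lone heterozygous and wild type arrays, which were assumed to vary as the homozygous lines do.

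Counts of separated signals describe the same pattern without a test. In signals as deposited, both homozygous arrays lay above both others in 6 of the 10 genes, against 11% of the genes tested. Relative to the median gene the number was 7 of 10, with Foxq1 added, against 18.1%. In 5 genes (Gata6, Sox7, Sox17, Pdgfra and Foxa2) both homozygous signals were above background and both others were not, against 6.34% of the genes tested. Sox7, Sox17 and Pdgfra passed the filter on dim genes only through their homozygous signals. The 10 genes also include Foxa1, which was not tested, while the shares cover tested genes only. These counts are therefore descriptions. Over all 21 probe sets, 4 were at or below background on every array and 2 were above it on every array. In 10 of the 21, both homozygous arrays were above both others relative to the median gene. Of these 10, 9 were among the 18 that passed the filter, and over all 22151 probe sets that passed it the share was 17.9%. In a fit of those probe sets, 1 of the members' (the brightest of Gata4) rose against wild type, where 0.262% of probe sets rose. Against heterozygous 2 rose (the brightest of Gata4 and of Sox17), where 0.456% of probe sets rose. With the wild type and heterozygous arrays joined, 2 of 9 members rose by limma, where 0.444% of genes rose. They were Gata4 (2.999 ± 0.628, adjusted p = 0.00556) and Sox17 (4.64 ± 0.76, adjusted p = 9.59e-06). Since Sox17 passed the filter only through its homozygous signals, the counts of these fits are descriptions too. Gata6 stood at 2.94 ± 0.74 in the joined fit (limma adjusted p = 0.0571). In that fit without ko1, 0 members were called by limma and 3 had an unadjusted p under 0.05 (Gata4 2.62, adjusted p = 0.971, and Sox17 4.54, adjusted p = 0.239). Without ko2, Sox17 was called (4.64, adjusted p = 0.0469) and Gata4 was not (3.27, adjusted p = 0.250).

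The primitive and definitive classes were compared by the medians of their members' log2 differences, with no test, since members are not replicates. For homozygous minus wild type the primitive class had a median of 3.38 over 6 genes, between 0.08 for Hnf4a and 3.86 for Sox17. The definitive class had a median of 0.70 over the 3 genes tested, between -0.31 for Hhex and 3.12 for Foxa2, and of 0.95 with Foxa1 included. The classes thus lay 2.68 apart, 2.80 in ko1 and 2.49 in ko2. For homozygous minus heterozygous the medians were 2.67 for the primitive and 0.68 for the definitive class. For heterozygous minus wild type they were 0.19 for the primitive and -0.01 for the definitive class. The ranges overlapped: Foxa2 stood above Sox7 and Hnf4a, and Hnf4a lay among the definitive genes.

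The size of the gap depended on how genes with several probe sets and dim signals were handled. It shrank to 0.44 when all probe sets of a gene were averaged and to 1.21 with dim signals set at background, a setting chosen after seeing the data. With Sox17 counted in the definitive class it was 1.42. In all of these the primitive class stayed above the definitive class, whose median rested on 3 to 4 genes.

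**Figure D4:**
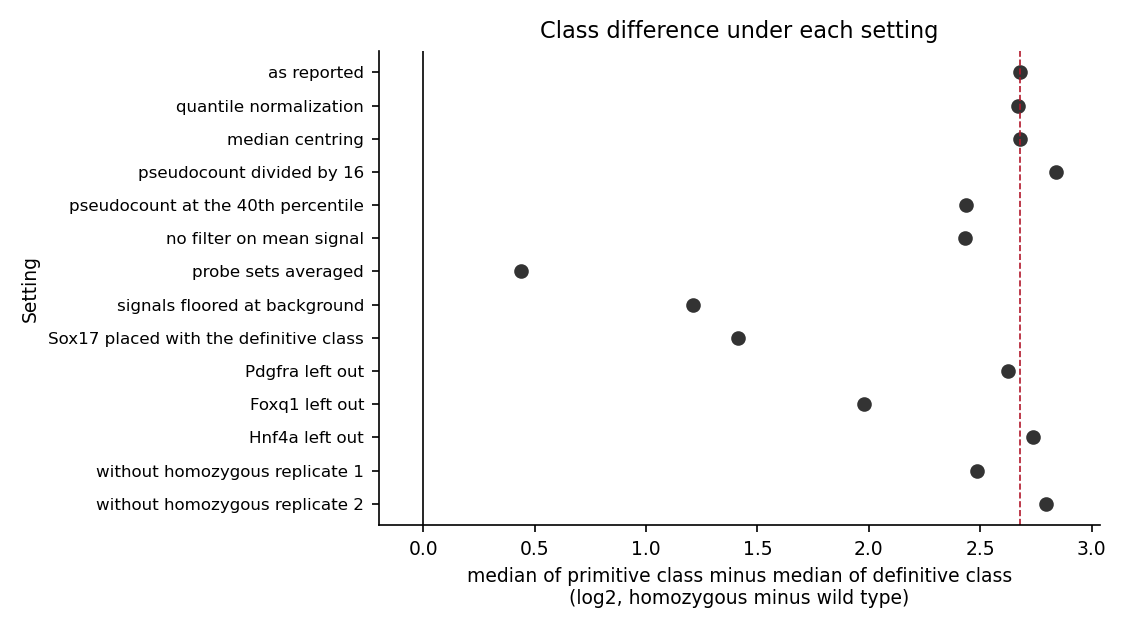
Median log2 difference (homozygous minus wild type) of the primitive class minus that of the definitive class under each setting; the dashed line marks the reported 2.68. The value is lowest, at 0.44, with probe sets averaged, and highest, at 2.84, with a smaller pseudocount.

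Promoter sequences of RefSeq, assembly GRCm38.p6, were matched for 5 of the 10 genes in 8 windows of 250 bases before to 50 bases after a gene's annotated start. They are shown for a pair of genes whose homozygous signals stood apart, Pdgfra and Foxa2, and a pair whose signals did not, Hnf4a and Hhex. Capitals mark words of 3 motifs, read on both strands. The GATA words were GATA preceded by A or T and followed by A or G. The SOX word was ACAATG, and the FOX word was TATTTAC, whose second base may also be G. The windows are chr5:75152001-75152300 on the plus strand for Pdgfra, chr2:148045415-148045714 on the minus strand for Foxa2 (the last of its 3 windows in the direction of transcription), chr2:163506607-163506906 on the plus strand for Hnf4a (the first of its 2) and chr19:37434591-37434890 on the plus strand for Hhex. For genes with several windows, the one that holds a match is printed.
Pdgfra: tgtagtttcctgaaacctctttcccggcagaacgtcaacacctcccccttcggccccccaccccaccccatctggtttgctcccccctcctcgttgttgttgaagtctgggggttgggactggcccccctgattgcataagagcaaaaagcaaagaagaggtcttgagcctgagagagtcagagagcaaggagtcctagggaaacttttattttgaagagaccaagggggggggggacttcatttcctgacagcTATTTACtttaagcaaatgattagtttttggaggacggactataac
Foxa2: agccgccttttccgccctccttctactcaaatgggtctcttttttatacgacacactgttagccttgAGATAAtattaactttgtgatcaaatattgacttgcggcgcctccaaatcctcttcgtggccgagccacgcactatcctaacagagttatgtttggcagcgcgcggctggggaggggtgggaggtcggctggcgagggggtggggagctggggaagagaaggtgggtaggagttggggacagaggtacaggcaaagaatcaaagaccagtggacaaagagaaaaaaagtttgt
Hnf4a: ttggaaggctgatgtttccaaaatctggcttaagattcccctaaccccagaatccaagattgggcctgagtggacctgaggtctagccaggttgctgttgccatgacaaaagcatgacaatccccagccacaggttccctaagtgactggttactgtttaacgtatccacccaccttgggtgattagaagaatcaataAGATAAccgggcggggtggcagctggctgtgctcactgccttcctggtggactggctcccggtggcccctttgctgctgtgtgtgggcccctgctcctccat
Hhex: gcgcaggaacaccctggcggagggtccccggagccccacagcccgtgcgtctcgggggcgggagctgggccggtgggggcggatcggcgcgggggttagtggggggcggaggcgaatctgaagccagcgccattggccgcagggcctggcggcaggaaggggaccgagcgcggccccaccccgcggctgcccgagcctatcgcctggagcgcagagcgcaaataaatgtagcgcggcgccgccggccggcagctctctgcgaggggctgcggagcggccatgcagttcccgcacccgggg

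The Pdgfra window holds a FOX word, TATTTAC, that begins at position 5, and no GATA or SOX word. The Foxa2 window holds a GATA word, AGATAA, that begins at position -183 from the start, and the Hnf4a window the same word at position -52. The Hhex window holds none of the words. No matches overlapped. Of 32544 promoter windows of the same length, 29.6% held a GATA word, 12.4% the SOX word and 6.55% a FOX word. A GATA word was thus present in a window of Foxa2, with separated signals, and of Hnf4a, without them. The other windows of both genes held none of the words. The printed windows were picked for their match, while the shares are those of single windows, so the pair cannot be compared.

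Other genes of the same programme were read from lists. Of 25 other extraembryonic endoderm genes, 21 were tested; 11 rose and 0 fell in homozygous minus wild type, where 0.401% of all genes tested rose. Of the 11, 5 (Cited1, Cubn, Fst, Pth1r and Srgn) passed the filter on dim genes only through their homozygous signals, so the count is a description. Of the 14 genes that passed it on the wild type and heterozygous signals alone, 6 rose (Col4a1, Col4a2, Lama1, Lamb1, Lamc1 and Sparc), which encode chains of collagen IV and laminin and the matrix protein SPARC. The list's median was 4.93 as fitted and 3.25 with dim signals set at background, a setting chosen after seeing the data. The count of 11 was the same after quantile normalization and after median centring, 6 with probe sets averaged and 0 without the intensity trend. The list was chosen with earlier results of these data known and is no independent evidence of its direction.

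The 6 with the largest fitted differences were read in full. Col4a2, a collagen IV chain gene, read 763 in ko1 and 379 in ko2, against 6.60 in heterozygous and 1.15 in wild type (at least 119-fold higher, fitted 8.95 ± 0.55, adjusted p = 1.84e-15). Col4a1, its partner chain, read 1125 in ko1 and 663 in ko2, against 11.3 in heterozygous and 10.3 in wild type (7.04 ± 0.56, adjusted p = 3.48e-11). Pth1r, the parathyroid hormone receptor gene of parietal endoderm, read 137 in ko1 and 57.1 in ko2, against 0.512 in heterozygous and 0.430 in wild type (at least 19.6-fold higher, fitted 7.08 ± 0.79, adjusted p = 4.27e-07). In these 3 genes ko1 was above ko2 and both homozygous lines were far above the other arrays. Srgn, a proteoglycan gene, read 130 in ko1 and 63.9 in ko2, against 2.50 in heterozygous and 1.08 in wild type (at least 20.2-fold higher, fitted 6.46 ± 0.67). Fst, which encodes the activin antagonist follistatin, read 88.2 in ko1 and 51.5 in ko2, against 0.453 in heterozygous and 0.850 in wild type (at least 14.9-fold higher, fitted 6.23 ± 0.80). Cited1, a transcriptional cofactor gene, read 87.4 in ko1 and 64.8 in ko2, against 0.595 in heterozygous and 1.29 in wild type (at least 16.7-fold higher, fitted 6.02 ± 0.74). Of these 6, Col4a1 alone was above background in heterozygous and wild type, so the order of the others is not measured. Lama1 and Sparc, above background in wild type and named after their values were seen, had fitted differences of 5.95 ± 0.56 and 5.78 ± 0.82. At the other end, Amn and Apob, genes of visceral endoderm that did not pass, were not above the other arrays in both homozygous lines. Amn read 0.381 in ko1 and 5.26 in ko2, against 5.55 in heterozygous and 7.10 in wild type. Apob read 6.15 in ko1 and 2.98 in ko2, against 3.03 in heterozygous and 8.33 in wild type.

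Of 17 other definitive endoderm and mesendoderm genes, 6 were tested and 0 passed the limma test (median 0.83). The unadjusted p was under 0.05 for 0 of them, against 1632 of the 13730 genes tested. Pyy, a peptide hormone gene of the gut, read 5.43 in ko1 and 6.66 in ko2, against 2.66 in heterozygous and 0.804 in wild type (fitted 2.92 ± 1.28, adjusted p = 0.469). Its signal was above background in ko2 alone. Pdx1, the pancreatic homeobox gene, read 6.39 in ko1 and 5.36 in ko2, against 0.525 in heterozygous and 3.83 in wild type (at least 1.30-fold higher, fitted 1.28 ± 1.28, adjusted p = 0.846). Both homozygous signals were just above background. Mixl1, a mesendoderm homeobox gene, was below background on all arrays, with 1.36 in ko1 and 0.448 in ko2, against 3.60 in heterozygous and 5.73 in wild type. Above background were 3 of the 15 genes with a probe set in ko1 and 4 in ko2, against 0 in heterozygous and 0 in wild type. The share of all genes tested at or below background also differed by array, from 33.9% in ko2 to 59.9% in heterozygous.

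The FGF to ERK pathway is the input that raises Gata6 in the mouse embryo. Of 17 genes listed, 13 were tested. In homozygous minus wild type 3 fell and 0 rose, with a median of -0.76, where 0.619% of all genes tested fell. The ligand gene Fgf4, a target of OCT4 and SOX2, read 5.72 in ko1 and 4.27 in ko2, against 33.1 in heterozygous and 75.7 in wild type (-3.02 ± 0.63, adjusted p = 0.000211). The ERK feedback inhibitor gene Spry4 read 3.81 in ko1 and 6.96 in ko2, against 11.4 in heterozygous and 42.9 in wild type (-2.15 ± 0.73, adjusted p = 0.0322). The ETS factor gene Etv5 read 10.1 in ko1 and 5.05 in ko2, against 11.3 in heterozygous and 47.7 in wild type (-1.87 ± 0.69, adjusted p = 0.0437). Both homozygous lines were below the other arrays in all 3. Fgf4 also fell against heterozygous (-2.55 ± 0.63, adjusted p = 0.0259), the single gene of the list to do so. These falls depended on the scaling: after quantile normalization 0 genes of the list fell in homozygous minus wild type, and after median centring 1 did. Against heterozygous 0 fell under either scaling.

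Of the PDGF ligand genes and Pdgfrb, which encodes the other PDGF receptor, 3 of 5 were tested and 0 passed by limma (median -0.53). The unadjusted p was under 0.05 for 1 of them (Pdgfa), against 1632 of the 13730 genes tested. Pdgfa, the ligand of the receptor that Pdgfra encodes, read 12.0 in ko1 and 13.9 in ko2, against 8.03 in heterozygous and 43.3 in wild type (-0.95 ± 0.64, adjusted p = 0.261). Pdgfc read 5.93 in ko1 and 8.45 in ko2, against 2.84 in heterozygous and 11.8 in wild type (0.06 ± 0.92, adjusted p = 0.729). In both, wild type was the highest array and heterozygous the lowest in signals as deposited. Relative to the median gene, Pdgfc was highest in ko2 (0.53, against 0.37 in wild type). Pdgfb, Pdgfd and Pdgfrb were below background on every array.

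Relatives of the members were read as well. Of 9 family relatives and cofactors, 7 were tested and 0 passed by limma (median 0.13). The unadjusted p was under 0.05 for 1 of them (Zfpm2), against 1632 of the 13730 genes tested. Gata2, a haematopoietic GATA factor gene, read 6.48 in ko1 and 14.7 in ko2, against 8.31 in heterozygous and 15.5 in wild type (0.12 ± 0.75, adjusted p = 0.697). Zfpm1, which encodes the GATA cofactor FOG1, read 13.9 in ko1 and 7.95 in ko2, against 0.407 in heterozygous and 9.41 in wild type (0.90 ± 1.01, adjusted p = 0.946). Zfpm2, the FOG2 gene, read 0.868 in ko1 and 1.52 in ko2, against 3.54 in heterozygous and 11.1 in wild type (at least 1.44-fold lower, fitted -1.94 ± 1.32, adjusted p = 0.419). In signals as deposited, wild type was the highest array for Gata2 and Zfpm2 and lay between the homozygous lines for Zfpm1. Relative to the median gene, Gata2 was highest in ko2 (1.28, against 0.75 in wild type). Zfpm1 in wild type (0.06) was then below ko1 (1.11) and ko2 (0.45). Gata3, Gata5, Sox18 and Foxa3 were above background in ko2 alone, the array with the lowest background. Gata3 read 0.449 in ko1 and 6.21 in ko2, against 0.586 in heterozygous and 3.58 in wild type. Gata5 read 2.33 in ko1 and 6.60 in ko2, against 6.57 in heterozygous and 6.37 in wild type, and its groups overlapped as those of Gata3 did. Sox18, the remaining SOXF gene, read 1.23 in ko1 and 4.43 in ko2, against 0.349 in heterozygous and 1.33 in wild type and did not pass the filter. Foxa3 read 3.29 in ko1 and 6.84 in ko2, against 2.24 in heterozygous and 2.22 in wild type (fitted 1.66 ± 1.27, adjusted p = 0.737), with both homozygous lines above the other arrays. Gata1 was below background on every array.

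**Figure D5:**
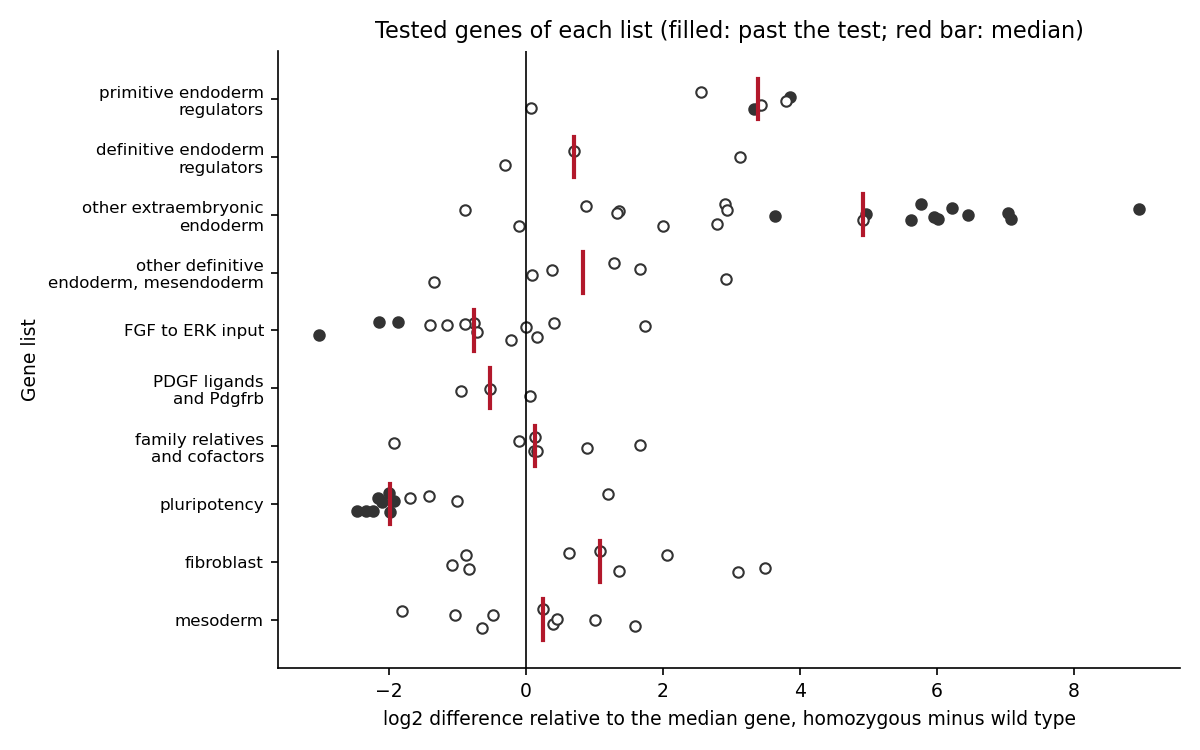
Log2 difference relative to the median gene (homozygous minus wild type) of each tested gene by list; filled circles passed the limma test and red bars are medians. The medians of the primitive endoderm regulators (3.38) and of the other extraembryonic endoderm genes (4.93) are the highest and that of the pluripotency markers (-1.99) the lowest.

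Markers of other cell types were set beside these genes. Of 12 pluripotency markers, 8 fell and 0 rose in homozygous minus wild type (median -1.99), where 0.619% of all genes tested fell. After quantile normalization 0 of them fell by the test (median -1.89), and after median centring 1 did. Their summed signal was 811 in ko1 and 922 in ko2, against 2018 in heterozygous and 3456 in wild type. Pou5f1, the OCT4 gene, read 11.7 in ko1 and 42.1 in ko2, against 98.7 in heterozygous and 213 in wild type (-2.47 ± 0.58, adjusted p = 0.000570). The next in size were Utf1 (-2.34 ± 0.54), Sox2 (-2.24 ± 0.62), Esrrb (-2.17 ± 0.57), Klf2 (-2.11 ± 0.54) and Gdf3 (-2.00 ± 0.61). Fibroblasts also express Pdgfra. Of 12 fibroblast markers, 9 were tested and 0 passed by limma (median 1.09). The unadjusted p was under 0.05 for 1 of them (Twist1), against 1632 of the 13730 genes tested. Of the 12, 4 were above background in ko1 and 6 in ko2, against 0 in heterozygous and 2 in wild type. Over all genes tested, the share at or below background was lowest in ko2 (33.9%) and highest in heterozygous (59.9%). The summed fibroblast signal was 50.2 in ko1 and 69.5 in ko2, against 31.5 in heterozygous and 43.1 in wild type. Col1a2, above background in wild type, read 16.5 in ko1 and 25.6 in ko2, against 2.85 in heterozygous and 7.84 in wild type (2.06 ± 0.75, adjusted p = 0.463). Of the others with the largest fitted differences, Twist1 (at least 1.28-fold higher, fitted 3.49 ± 1.34), Dcn (no lower bound over 1, fitted 3.10 ± 1.48) and Thy1 (no lower bound over 1, fitted 1.36 ± 1.40) were below background in heterozygous and wild type, so their sizes and order are not measured.

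Of 10 mesoderm markers, 9 were tested and 0 passed by limma (median 0.25). The unadjusted p was under 0.05 for 2 of them (Msgn1 and Tcf15), against 1632 of the 13730 genes tested. The summed mesoderm signal was 49.3 in ko1 and 53.8 in ko2, against 61.7 in heterozygous and 95.7 in wild type. Of the 4 with the largest fitted differences, Tcf15 (-1.03 ± 0.79) and Kdr (1.01 ± 0.82) were above background in wild type. Msgn1 (at least 2.14-fold lower, fitted -1.82 ± 1.22) was below background in both homozygous lines, and Foxc1 (no lower bound over 1, fitted 1.59 ± 1.54) in ko1 and wild type, so their sizes and order are not measured. The actin ratio was highest in ko1, as were the signals of Gata4, Gata6, Sox7, Sox17, Pdgfra and Foxa2. Both the actin and the Gapdh ratio fell in the order ko1, heterozygous, ko2 and wild type. The part of the marker levels and of these ratios in the members' differences was not tested.

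Profiles over the 4 arrays were compared by Euclidean distance of log2 values, relative to each array's median gene and with the gene mean removed. Among 5845 candidate genes above background in both homozygous lines, the nearest to Gata4 were Odr4 (0.09), Tpcn1 (0.14) and Gdpd5 (0.21). Those nearest to Gata6 were Osbp2 (0.13), Serpinb6b (0.17) and Patj (0.17). Those nearest to Sox17 were Gsn (0.49), Glipr1 (0.71) and Epas1 (0.84), and those nearest to Pdgfra were Cers6 (0.08), Gm33628 (0.15) and Vmn1r13 (0.23). Among the members, Gata6 was 0.55 from Gata4, with 36 candidates nearer, and Pdgfra 0.62, with 50 nearer. Foxa2 was 0.82 and Sox7 0.85 from Gata4, with 93 and 104 candidates nearer. Sox17 was 2.31 from Gata4, with 1274 nearer, and Hhex was 3.32 away. The nearest genes of Gata4, Gata6 and Pdgfra were all below background in wild type and heterozygous. So were those of Sox17, apart from Epas1 in wild type. The distances of Sox17 also lean on its heterozygous signal of 0.217. The order of the distances is therefore not measured. With only 4 arrays, many genes had like profiles, and a short distance is a description of these arrays.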

How the data were processed

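RNA of the 4 cultures was biotin-labelled and measured on Affymetrix arrays, per the labels. The authors made the signal intensities of the deposited tables, which are linear and hold a value per probe set, with MAS5, a step named in the submitters' processing notes. Its version, target scale and detection calls are not given in any source used here. Gene symbols came from the platform annotation. Of 45101 probe sets, 34958 had a single symbol. Chromosomes and promoters came from RefSeq, GRCm38.p6.

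Signals were analysed as log2(signal + 0.675), the 20th percentile of all values, and fold changes on that scale understate changes of dim genes. For each gene the probe set of highest mean was taken, and the 13730 of 18194 genes with a mean above 2.55, the 40th percentile, were tested. The fit was limma 3.58.1 in R 4.3.3 (1 mean per genotype, eBayes with an intensity trend, Benjamini-Hochberg, threshold 0.05), with two-sided p-values. It has 1 residual degree of freedom, the spread between ko1 and ko2, and 47.6 in all after borrowing across genes. The second fit joined wild type and heterozygous; there limma took each variance wholly from the trend. Nothing says that the arrays came from repeated cultures of a line, so a p-value reflects only how these samples vary, which may be technical. The number of arrays limits the precision. The fit was tested on simulated data.

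Where a group was at background on each of its arrays, the fold is a lower bound ("at least"): the mean of the brighter group over that background, corrected for the median gene, or the fitted fold where that is smaller. A homozygous signal at or below its own background entered that mean as read. A bound that includes such a signal is not strict. The promoter words were chosen after the promoter sequences had been seen. Alternatives were other scalings, pseudocounts, filters, probe set rules, variance models and leaving out each homozygous array. The members, classes, lists and tests were chosen with earlier results of these data known. Named genes were all members, all PDGF and family genes above background on any array, up to 6 called genes of each other list or its 4 largest differences, Arid1a, and the 3 nearest profiles to 4 members.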

Additional observations from a re-analysis of the deposited data

How the results depend on the processing

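Each member's log2 difference was recomputed under 11 settings, in 180 values. Of these, 152 stayed on their side of the threshold or, with no test, moved by less than the spread between ko1 and ko2. Another 5 moved by more, 20 lost a call and 3 changed sign in a fit. With 2 lines, leaving out 1 moves their mean by less than that spread by construction, apart from the shift of the median gene. The values with no test therefore cannot show stability. Only Gata4 and Sox17 had calls to lose, so most of the 152 belong to members never called. Gata4 lost 5 calls against wild type and 5 against heterozygous, and Sox17 lost 7 and 3. Of the 152, 1 also changed sign: Hnf4a against wild type, at -0.24 without ko1. The sign changes in a fit were Hnf4a against wild type, at -0.053 without the filter and -0.029 with dim signals set at background, and Hhex against heterozygous, at 0.22 with dim signals set at background. In limma's test of homozygous minus wild type, 2 members were called as reported, but 1 after median centring (Gata4) and 0 after quantile normalization, with the pseudocount divided by 16, without the filter, with probe sets averaged or without the intensity trend, where 3 to 6 had an unadjusted p under 0.05. Leaving out a homozygous array in the fit of 2 groups gave 0 to 1. Against heterozygous, 1 was called after quantile normalization, median centring or without the filter (Sox17) and 1 with dim signals at background (Gata4); 0 were called with probe sets averaged or without the trend. Over all genes the same settings called 0 to 203 in homozygous minus wild type, against 140 as reported, and 0 to 111 in homozygous minus heterozygous, against 104. The gap between the classes was 2.43 with the pseudocount at the 40th percentile and 2.43 without the filter, 0.44 with probe sets averaged, 1.21 with dim signals at background, 1.42 with Sox17 in the definitive class and 1.98 without Foxq1. It was between 2.49 and 2.80 with a homozygous array left out. The causes of these changes were not tested. Signal near background limits what Sox7, Sox17, Pdgfra, Foxa2 and Gata6 can show in the wild type and heterozygous arrays. No paired analysis was possible because only the homozygous arrays carry a replicate number.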
